A study of Arabidopsis thaliana with 9 samples.

Results

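The 53 genes described here encode enzymes of primary metabolism in Arabidopsis thaliana that need the vitamin B6 cofactor PLP (pyridoxal 5′-phosphate). They were taken by locus identifier from the 33602 loci counted in each library, and 52 of them passed the filter on low counts. The exception was HPA2, with 0 to 4 counts per library. They comprise aminotransferases, serine hydroxymethyltransferases, the P-proteins of glycine decarboxylase, amino acid decarboxylases and lyases, the subunits of serine palmitoyltransferase, cysteine desulfurases and glucan phosphorylases. Transcripts were measured by sequencing polyA-selected mRNA of whole rosettes at 21 days of age, from plants on soil under 16 hours of light and 8 hours of dark. There were 3 libraries of pdx3-3 (line SALK_054167C), 3 of pdx3-4 (line GK-260E03) and 3 of wild type, all in the Col-0 ecotype. Both mutants carry an insertion in PDX3, 1 line per allele, and the replicates are biological per the labels. The comparisons ask how transcripts of enzymes that need PLP differ in plants with a defect in an enzyme that makes it.

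PLP binds its enzymes as a Schiff base with a lysine side chain, and the same cofactor serves transamination, decarboxylation, side-chain elimination and the exchange of carbon units between glycine and serine. PDX3 is the oxidase that makes PLP from the phosphorylated forms of pyridoxine and pyridoxamine, of which the second is left on an aminotransferase between its reaction steps. In a leaf in the light, the enzymes of photorespiration are among the most heavily used PLP enzymes; there, peroxisomal aminotransferases make glycine from glyoxylate and mitochondria turn glycine into serine. In glucan phosphorylases the cofactor acts through its phosphate group and not as an amino group carrier.

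PDX3 (AT5G49970) had 9.24, 8.22 and 10.8 CPM (counts scaled to a fixed library total) in pdx3-3, 43.4, 51.5 and 42.7 CPM in pdx3-4, and 90.1, 88.9 and 78.7 CPM in wild type. Every mutant library lay below wild type, at a log2 fold change of −3.25 ± 0.12 (SE, adjusted p = 9.54e-08) in pdx3-3 and −0.96 ± 0.11 (adjusted p = 4.36e-05) in pdx3-4, in the direction the labels give. Libraries held 15912737 to 21938941 counts. Counts of chloroplast genes made up 0.536% of pdx3-3 library 1 and 0.174% of pdx3-3 library 2, against 0.0162% to 0.0532% of the other 7 libraries, so results were also computed without these. Of 4 defining genes of photosynthetic leaf cells, 4 were lower in pdx3-3 and 3 in pdx3-4, and their summed level was 40754 to 46074 CPM in pdx3-3, 41961 to 44609 CPM in pdx3-4 and 53975 to 56625 CPM in wild type. All 3 guard cell lineage markers were lower in both mutants (summed 15.6 to 19.9 CPM in pdx3-3, 16.3 to 17.9 CPM in pdx3-4 and 33.7 CPM in each wild-type library). Both phloem markers were also lower in both mutants (summed 152 to 174 CPM in pdx3-3, 164 to 194 CPM in pdx3-4 and 195 to 284 CPM in wild type). Of 5 root markers, PYK10 was detected at 19.6 to 61.1 CPM with no call and the other 4 had at most 3 counts in a library; the 2 seed markers had at most 4 counts. The 5 floral genes summed to at most 4.49 CPM, and AG was lower in both mutants. In such bulk samples, fewer cells of a type and less RNA per cell cannot be told apart.

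The bases before 6 members are shown as examples: both alanine aminotransferases, which were higher in both mutants, the adjacent genes BCAT1 and BCAT2, which moved in opposite directions in pdx3-3, the most reduced member MGL, and GLDP1, the most abundant P-protein gene. Each line gives the 250 bases 5′ of the annotated gene start on the strand of the gene, from the RefSeq annotation of TAIR10.1, at chr1:5922082-5922331 (+) for ALAAT1, chr1:27233168-27233417 (+) for ALAAT2, chr1:3283823-3284072 (+) for BCAT1, chr1:3287837-3288086 (+) for BCAT2, chr1:24028580-24028829 (+) for MGL and chr4:15931423-15931672 (−) for GLDP1. Capitals mark matches, on either strand, to TTGAC (the core bound by WRKY factors), CACGTG (the G-box, its own reverse complement), GATAAG (a motif of light-regulated promoters) and AAAATATCT (the evening element of clock-regulated genes).
ALAAT1: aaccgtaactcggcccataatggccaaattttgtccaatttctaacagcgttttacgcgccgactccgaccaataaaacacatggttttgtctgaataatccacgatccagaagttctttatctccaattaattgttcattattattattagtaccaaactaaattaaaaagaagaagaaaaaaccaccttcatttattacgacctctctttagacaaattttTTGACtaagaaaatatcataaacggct
ALAAT2: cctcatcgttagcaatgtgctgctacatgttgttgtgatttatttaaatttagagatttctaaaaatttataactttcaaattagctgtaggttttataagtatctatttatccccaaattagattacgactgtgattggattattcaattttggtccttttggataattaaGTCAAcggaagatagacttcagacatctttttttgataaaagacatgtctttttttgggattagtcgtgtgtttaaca
BCAT1: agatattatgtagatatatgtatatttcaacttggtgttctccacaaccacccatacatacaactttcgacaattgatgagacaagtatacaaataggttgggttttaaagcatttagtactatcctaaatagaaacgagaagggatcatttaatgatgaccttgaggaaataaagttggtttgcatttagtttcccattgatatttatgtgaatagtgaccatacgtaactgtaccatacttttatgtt
BCAT2: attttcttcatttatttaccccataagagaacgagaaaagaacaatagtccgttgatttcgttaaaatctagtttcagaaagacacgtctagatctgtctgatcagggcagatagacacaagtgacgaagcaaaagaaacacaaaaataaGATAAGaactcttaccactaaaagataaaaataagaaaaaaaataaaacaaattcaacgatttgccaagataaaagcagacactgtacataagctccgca
MGL: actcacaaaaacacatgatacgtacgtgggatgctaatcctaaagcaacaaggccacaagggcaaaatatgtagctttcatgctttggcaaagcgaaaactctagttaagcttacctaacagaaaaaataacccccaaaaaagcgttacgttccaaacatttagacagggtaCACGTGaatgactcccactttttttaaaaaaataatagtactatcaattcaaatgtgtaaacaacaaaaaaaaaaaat
GLDP1: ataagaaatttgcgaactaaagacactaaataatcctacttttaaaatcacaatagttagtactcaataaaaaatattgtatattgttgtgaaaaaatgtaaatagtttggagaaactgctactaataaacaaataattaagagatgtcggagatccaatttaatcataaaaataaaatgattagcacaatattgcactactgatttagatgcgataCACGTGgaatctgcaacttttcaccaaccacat

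Counting back from the base before the gene start, a TTGAC match began at −27 in ALAAT1 and at −78 in ALAAT2, where it lies on the other strand and reads GTCAA in the printed bases. The motif GATAAG began at −100 in BCAT2, and CACGTG at −78 in MGL and at −33 in GLDP1. BCAT1 held none of the 4 motifs in this window, and no matches overlapped. Over all 53 members, TTGAC occurred before 17 (32.1%), against 44.9% of 27443 windows of the same length before nuclear protein-coding genes. CACGTG occurred before 7 members (13.2%), against 6.49% of all windows: GGT1, GGT2, GLDP1, CBL, MGL, PHS1 and PHS2. GATAAG occurred before 9 members (17%), against 12.3% of all windows, and AAAATATCT before TS1, CGS1 and WIN1 (5.66%), against 2.36%. These are descriptions of letters in a window, not of binding.

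In pdx3-3, 12 of the 52 tested members were higher than in wild type and 21 were lower (63.5% called), where 36.4% of all 18783 tested genes were called, 19% higher and 17.5% lower. In pdx3-4, 6 members were higher and 21 lower (51.9% called), against 39.2% of all genes, 20.9% higher and 18.4% lower. A call is an adjusted p under 0.05 in edgeR's quasi-likelihood test with Benjamini-Hochberg adjustment over all tested genes. The median log2 fold change of the members was −0.16 in pdx3-3, against −0.03 over all genes, and −0.19 in pdx3-4, against −0.01 over all genes. Without wild type 3 the pdx3-3 median of the members was −0.0955. Both comparisons use the same wild-type libraries and are therefore not independent of each other. Most changes were small, from −0.79 (MGL) to 2.31 (THA1) in pdx3-3 and from −1.06 (MGL) to 2.38 (THA1) in pdx3-4 on the log2 scale. Of the calls, 20 of 33 in pdx3-3 and 18 of 27 in pdx3-4 held when any 1 library was left out. Without pdx3-3 replicate 2 the pdx3-3 count of higher members was 6. Without pdx3-3 replicates 1 and 2, a lone pdx3-3 library is left, assumed to vary like the others. Fewer members were then called in pdx3-3, as were fewer of all tested genes. The pdx3-3 median of the members was then −0.199, against −0.0255 over all genes.

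The most abundant members were mostly lower. Ordered by wild-type level per kilobase of exon, the 10 most abundant members (88.4 to 1726 CPM per kb) were 1 higher and 9 lower in pdx3-3, and 0 higher, 8 lower and 2 not called in pdx3-4. Among the 10 least abundant tested members (0.0995 to 8.61 CPM per kb), 4 were higher and 3 lower in pdx3-3, and 3 higher and 3 lower in pdx3-4. Over all tested genes, 19% were higher and 17.5% lower in pdx3-3, and 20.9% higher and 18.4% lower in pdx3-4. Other genes of like abundance were not compared. SHM1, the mitochondrial serine hydroxymethyltransferase of photorespiration, was the most abundant at 1726 ± 133 CPM per kb in wild type (SD, n = 3). GGT1 followed at 1081 ± 89.6, AGT1 at 840.1 ± 66.7, GLDP1 at 725 ± 129 and GLDP2 at 212 ± 20.6 CPM per kb in wild type. GLDP1 and AGT1 lie within their spread of each other, and so do OASA1 (170.2 ± 8.09) and OASB (166 ± 9.70 CPM per kb).

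**Figure D1:**
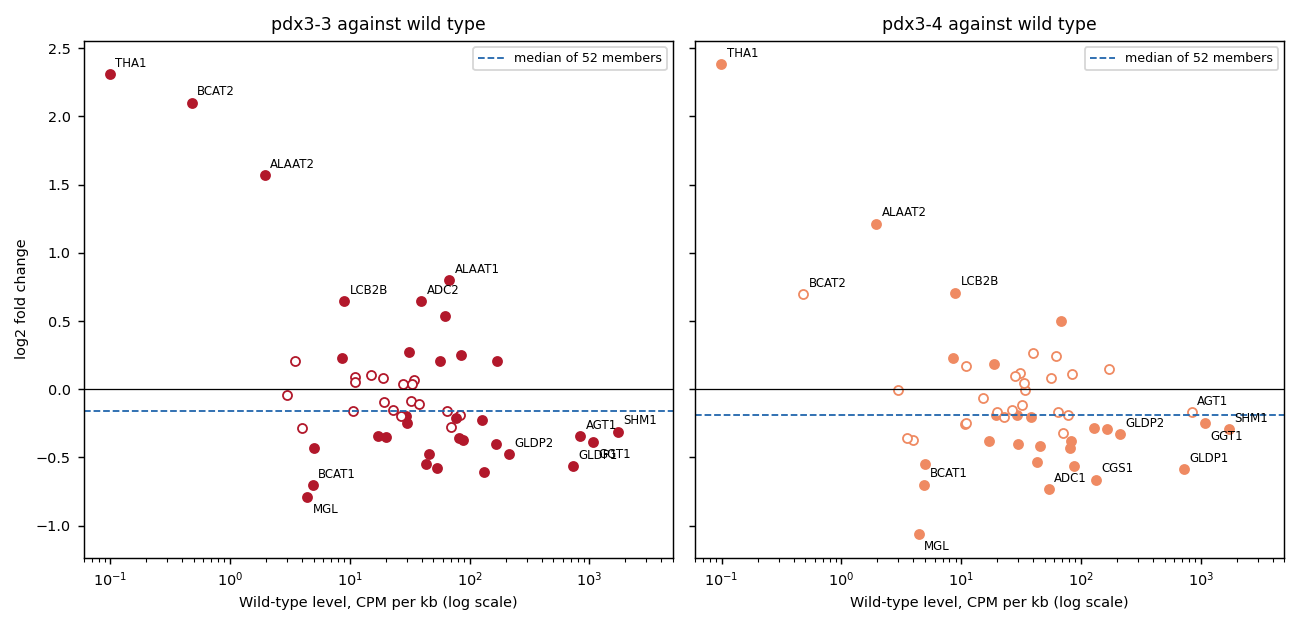
Log2 fold change of each of the 52 tested members in pdx3-3 (left) and pdx3-4 (right) against its wild-type level in CPM per kb on a log axis, with filled points called, open points not called and the dashed line at the median of the members (−0.16 and −0.19). The 5 photorespiratory enzymes at the right lie below 0 in both panels, and the points with the largest increases, THA1, ALAAT2 and in pdx3-3 BCAT2, are at the low end.

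Genes of the photorespiratory enzymes made up most of the members' counts, and of 5 main ones, 5 were lower in pdx3-3 and 4 in pdx3-4. Lower calls over all tested genes were 17.5% in pdx3-3 and 18.4% in pdx3-4. GGT1 and AGT1, the peroxisomal glutamate and serine glyoxylate aminotransferases, SHM1, GLDP1 and GLDP2 together took 66.7% to 68.2% of the members' counts in pdx3-3, 69.9% to 70.2% in pdx3-4 and 70.5% to 74.8% in wild type. As a share of the whole library they were 0.864% to 0.874% in pdx3-3, 0.892% to 0.946% in pdx3-4 and 0.984% to 1.2% in wild type. The other members together took 0.405% to 0.431% of the library in pdx3-3, 0.382% to 0.402% in pdx3-4 and 0.405% to 0.421% in wild type. The share of the photorespiratory genes was thus below wild type in every mutant library, and the share of the other members overlapped with wild type in pdx3-3 but not in pdx3-4. In log2 fold change, GGT1 was −0.39 ± 0.081 (SE, adjusted p = 0.00353) in pdx3-3 and −0.25 ± 0.081 (adjusted p = 0.0306) in pdx3-4. AGT1 was −0.34 ± 0.080 (adjusted p = 0.00657) in pdx3-3 and −0.17 ± 0.080 with no call in pdx3-4 (adjusted p = 0.126, or 0.00977 without wild type 3). Without pdx3-3 1 and 2, the pdx3-3 adjusted p was 0.13 for GGT1, 0.111 for AGT1 and 0.087 for SHM1. The summed leaf marker level given above moved with these genes, and its part in their change was not tested.

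GLDP1 and GLDP2 encode the PLP-binding P-protein of glycine decarboxylase. GLDP1 had 1799.8, 1930.2 and 1782 CPM in pdx3-3, 2011, 1656 and 1753 CPM in pdx3-4, and 2767, 2959 and 2078 CPM in wild type. The third wild-type library was the lowest of its group, yet above every mutant library. Its log2 fold change was −0.56 ± 0.13 (adjusted p = 0.00731) in pdx3-3 and −0.58 ± 0.13 (adjusted p = 0.00554) in pdx3-4. GLDP2 had 612, 639 and 639 CPM in pdx3-3, 747, 652 and 685 CPM in pdx3-4, and 868, 905 and 749 CPM in wild type. These groups did not overlap either, at −0.47 ± 0.093 (adjusted p = 0.00235) in pdx3-3 and −0.33 ± 0.093 (adjusted p = 0.0158) in pdx3-4. The pdx3-4 call of GLDP2 was lost without wild type 1, wild type 2 or pdx3-4 2 (adjusted p of 0.0547 to 0.0674), and without pdx3-3 1 and 2 the pdx3-3 calls had adjusted p = 0.0799 for GLDP1 and 0.0622 for GLDP2. Among the 6 other subunits of the complex, which carry no PLP, 4 were lower and 0 higher in each mutant. Of all tested genes, 17.5% were lower in pdx3-3 and 18.4% in pdx3-4. GLDT, the aminomethyltransferase (T-protein), was −0.64 ± 0.082 (adjusted p = 0.000134) in pdx3-3 and −0.63 ± 0.082 (adjusted p = 0.000142) in pdx3-4. The lipoyl H-proteins GLDH1 and GLDH3 were both at −0.48 in pdx3-3, with adjusted p = 0.00125 for GLDH1 and 0.000509 for GLDH3. In pdx3-4, GLDH1 was −0.37 with adjusted p = 0.0058 and GLDH3 −0.36 with adjusted p = 0.00308.

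Among the serine hydroxymethyltransferases, SHM1, SHM2 and SHM4 were called lower in at least 1 mutant, and the plastid form SHM3 in neither. SHM4, the cytosolic form, had 137, 138 and 122 CPM in pdx3-3, 124, 111 and 114 CPM in pdx3-4, and 186, 157 and 154 CPM in wild type. All mutant libraries were below wild type, at −0.38 ± 0.093 (adjusted p = 0.00901) in pdx3-3 and −0.56 ± 0.093 (adjusted p = 0.000763) in pdx3-4, and both calls held without any 1 library. SHM1 was −0.31 ± 0.084 (adjusted p = 0.0142) in pdx3-3 and −0.29 ± 0.084 (adjusted p = 0.0174) in pdx3-4. Its pdx3-3 call was lost without wild type 2, pdx3-3 2 or pdx3-3 3 (adjusted p of 0.0505 to 0.0617), and its pdx3-4 call without wild type 1, wild type 2 or pdx3-4 2 (0.0585 to 0.0624). SHM2, another mitochondrial form, was −0.10 with no call (adjusted p = 0.24) in pdx3-3 and −0.19 in pdx3-4 (adjusted p = 0.028), lost without wild type 2, pdx3-4 2 or pdx3-4 3 (0.0766 to 0.0917). Of the summed level per kilobase of SHM1, SHM2, SHM3 and SHM4, SHM1 gave 92.4% ± 0.43 in pdx3-3, 92.9% ± 0.11 in pdx3-4 and 92.7% ± 0.59 in wild type (SD, n = 3).

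The alanine aminotransferases, which exchange amino groups between alanine and glutamate, rose in both mutants. ALAAT2 (AT1G72330) had 11.8, 12.2 and 14.6 CPM in pdx3-3, 10.3, 9.18 and 10.6 CPM in pdx3-4, and 3.91, 3.97 and 4.65 CPM in wild type. Every mutant library was above every wild-type library, at a log2 fold change of 1.57 ± 0.12 (adjusted p = 3.18e-06, 2.97-fold) in pdx3-3 and 1.21 ± 0.12 (adjusted p = 2.15e-05, 2.32-fold) in pdx3-4. ALAAT1 (AT1G17290) had 279.8, 298 and 301 CPM in pdx3-3, 256, 232 and 224 CPM in pdx3-4, and 178, 166 and 139.8 CPM in wild type. Here too the groups were separate, at 0.80 ± 0.098 (adjusted p = 9.88e-05) in pdx3-3 and 0.50 ± 0.098 (adjusted p = 0.00226) in pdx3-4. All 4 calls held when any 1 library was left out and without pdx3-3 1 and 2. ALAAT1 gave most of the transcript, and the share of ALAAT2 in the family's level per kilobase was 4.66% ± 0.41 in pdx3-3, 4.52% ± 0.43 in pdx3-4 and 2.85% ± 0.64 in wild type (SD, n = 3). An annotated gene on the same strand, AT1G72340, overlaps exons of ALAAT2, and how the counting divided such reads is not known here.

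GGT2, the minor copy of the glutamate glyoxylate aminotransferase, had 77.4, 95.2 and 80 CPM in pdx3-3, 97.5, 80 and 85.4 CPM in pdx3-4, and 114, 130.1 and 91.7 CPM in wild type. The groups overlapped through the third wild-type library. Its log2 fold change was −0.47 ± 0.14 (adjusted p = 0.0217) in pdx3-3 and −0.41 ± 0.14 (adjusted p = 0.0369) in pdx3-4. Neither held throughout: the pdx3-3 call was lost without wild type 1, wild type 2, pdx3-3 1 or pdx3-3 3 (adjusted p of 0.0544 to 0.0837) and the pdx3-4 call without wild type 1, wild type 2, pdx3-4 2 or pdx3-4 3 (0.0856 to 0.144). The pdx3-4 call of GGT1 was likewise lost without wild type 2 or any 1 pdx3-4 library (0.0717 to 0.1). Without wild type 2 the pdx3-4 value was −0.16 for GGT1 and −0.27 for GGT2.

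**Figure D2:**
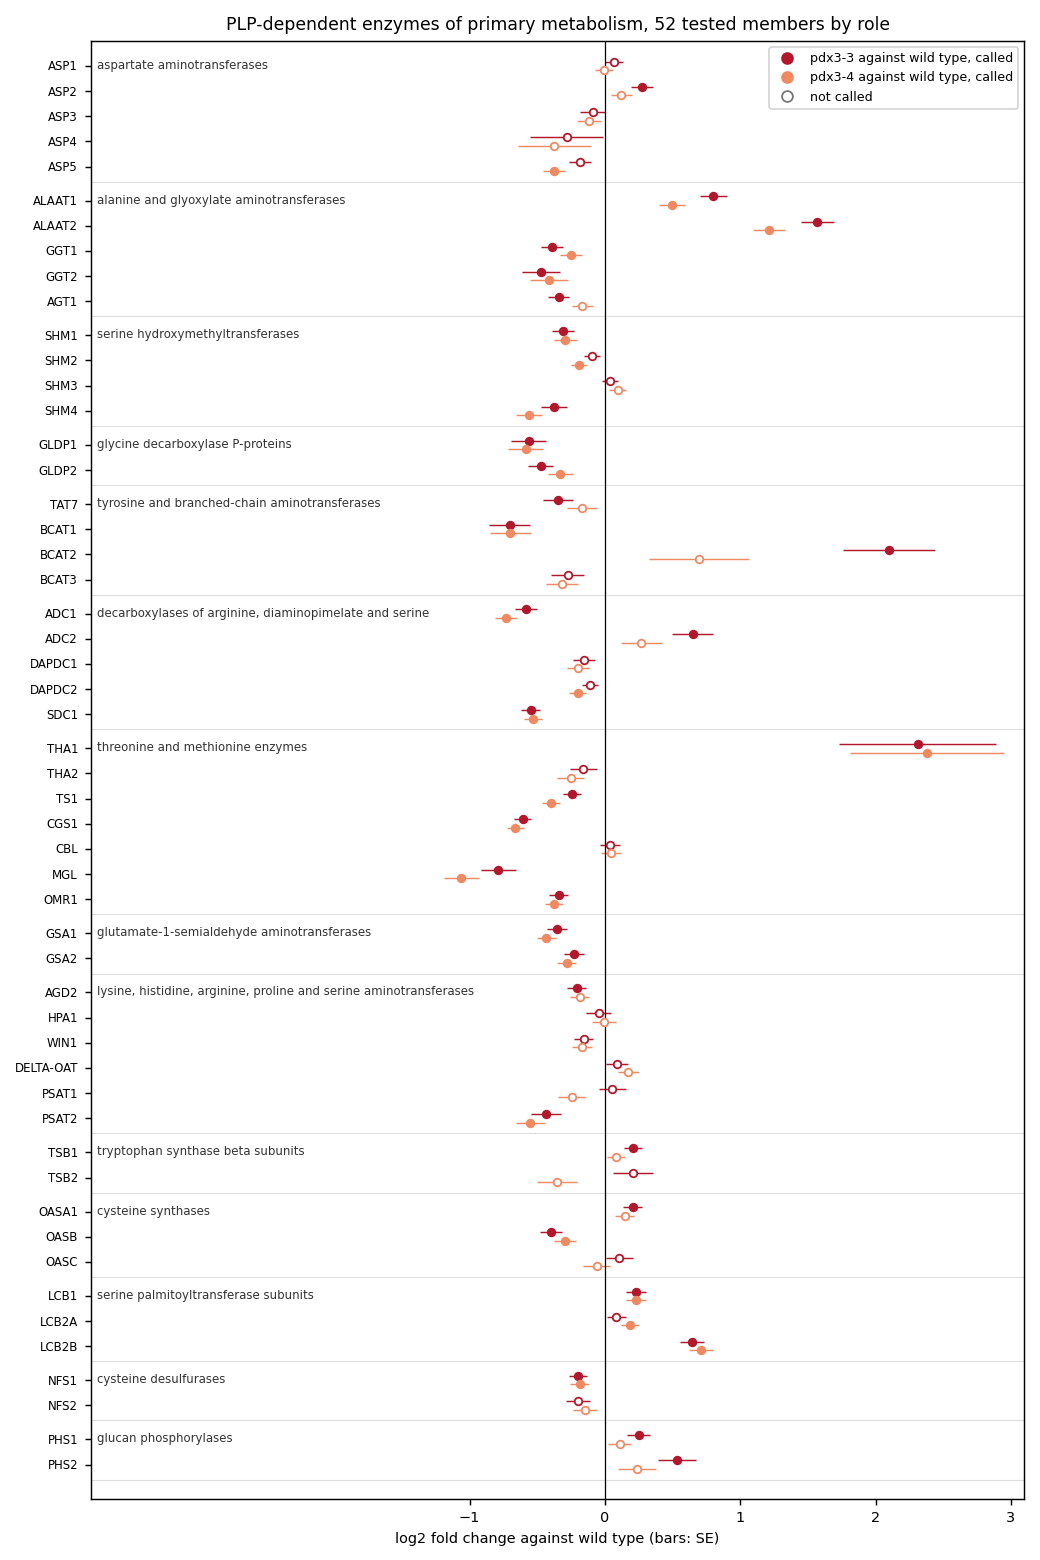
Log2 fold change against wild type of the 52 tested members, grouped by role, for pdx3-3 (upper point of each row) and pdx3-4 (lower point), with bars of 1 SE, filled points called and open points not called. Both alanine aminotransferases lie right of 0 and the P-proteins, MGL, CGS1, ADC1 and SDC1 left of it in both mutants, and BCAT2 lies at 2.10 in pdx3-3 and 0.70 in pdx3-4.

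Of the 5 aspartate aminotransferases, which link oxaloacetate and aspartate in different compartments, only ASP2 and ASP5 were called in either mutant. The cytosolic ASP2 had 74.3, 75 and 65.3 CPM in pdx3-3, 66.8, 64.5 and 61.2 CPM in pdx3-4, and 55, 52.6 and 63.3 CPM in wild type. It was above wild type in every pdx3-3 library, at 0.28 ± 0.079 (adjusted p = 0.019), and overlapped with wild type in pdx3-4, at 0.12 ± 0.079 (adjusted p = 0.254). The ASP2 call was lost without wild type 1, wild type 2, pdx3-3 1 or pdx3-3 2 (adjusted p of 0.0506 to 0.0762) and with upper-quartile factors (log2 0.15, adjusted p = 0.176). ASP5, the plastid form, was −0.19 ± 0.081 in pdx3-3 (adjusted p = 0.0978, or 0.0305 without pdx3-3 1) and lower in pdx3-4, at −0.38 ± 0.081 (adjusted p = 0.004). TAT7, an aminotransferase of tyrosine, was −0.35 ± 0.11 (adjusted p = 0.0307) in pdx3-3 and −0.17 ± 0.11 in pdx3-4 (adjusted p = 0.255, or 0.0235 without wild type 3). Its pdx3-3 call was lost without wild type 1, wild type 2 or any 1 pdx3-3 library (0.0544 to 0.114).

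The branched-chain aminotransferases, which act on leucine, isoleucine and valine, moved apart in pdx3-3, where BCAT2 was higher and BCAT1 lower. BCAT2 (AT1G10070), a plastid form, had 4.78, 3.17 and 3.67 CPM in pdx3-3, 1.22, 1.3 and 1.83 CPM in pdx3-4, and 0.515, 1.37 and 0.642 CPM in wild type, from 10 to 77 counts per library. In pdx3-3 every library was above all others, at a log2 fold change against wild type of 2.10 ± 0.34 (adjusted p = 0.000696, 4.29-fold). In pdx3-4 it overlapped with wild type library 2, at 0.70 ± 0.37 (adjusted p = 0.162). Without wild type 2 it was 2.69 in pdx3-3 and 1.29 in pdx3-4 (adjusted p = 0.0164 in pdx3-4), and without wild type 1 the pdx3-4 value was 0.44. BCAT1 (AT1G10060), a mitochondrial form that lies 794 bases upstream on the same strand of chromosome 1, had 7.29, 9.36 and 7.77 CPM in pdx3-3, 8.12, 7.11 and 9.25 CPM in pdx3-4, and 15, 11.9 and 11.5 CPM in wild type. All mutant libraries were below wild type, at −0.70 ± 0.15 (adjusted p = 0.00353) in pdx3-3 and −0.70 ± 0.15 (adjusted p = 0.00324) in pdx3-4, and these calls held without any 1 library. BCAT3, a plastid form, was called in neither mutant (adjusted p of 0.0969 in pdx3-3 and 0.056 in pdx3-4). Of the summed level per kilobase of BCAT1, BCAT2 and BCAT3, it gave 91.8% ± 0.61 in pdx3-3, 93.7% ± 0.97 in pdx3-4 and 92.7% ± 1.8 in wild type (SD, n = 3). This sum leaves out BCAT4, BCAT5 and BCAT6, which are not members. The share of BCAT2 in the same sum was 3.41% ± 0.85 in pdx3-3, 1.33% ± 0.29 in pdx3-4 and 0.674% ± 0.46 in wild type. An antisense gene, AT1G10090, covers 9.19% of the BCAT2 exons.

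Around these aminotransferases, only higher calls were made among breakdown genes. Of 8 enzymes of branched-chain amino acid breakdown that carry no PLP, 4 were higher and 0 lower in pdx3-3, and 5 were higher and 0 lower in pdx3-4. BCKDH-E1A1, a subunit of the branched-chain keto acid dehydrogenase, was 0.69 ± 0.10 (adjusted p = 0.000372) in pdx3-3 and 0.39 ± 0.10 (adjusted p = 0.0123) in pdx3-4, the second of which was lost without pdx3-4 1 (0.0507). DIN4, another subunit, was 0.44 ± 0.083 (adjusted p = 0.00188) in pdx3-3 and 0.57 ± 0.082 (adjusted p = 0.000302) in pdx3-4. MCCA, a subunit of methylcrotonyl-CoA carboxylase in leucine breakdown, was 0.36 ± 0.068 (adjusted p = 0.002) in pdx3-3 and 0.62 ± 0.068 (adjusted p = 4.44e-05) in pdx3-4. Of 10 synthesis enzymes, 1 was higher and 3 lower in pdx3-3, and 2 higher and 5 lower in pdx3-4. For both lists, the shares over all tested genes were 19% higher and 17.5% lower in pdx3-3. In pdx3-4 they were 20.9% higher and 18.4% lower. AHASS1, a regulatory subunit of acetohydroxyacid synthase, was 0.66 ± 0.11 (adjusted p = 0.00113) in pdx3-3 and 1.11 ± 0.11 (adjusted p = 2.97e-05) in pdx3-4. KARI, the reductoisomerase, was −0.29 (adjusted p = 0.00673, or 0.0749 without pdx3-3 1 and 2) in pdx3-3 and −0.27 (adjusted p = 0.00959) in pdx3-4. VAT1 was −0.30 (adjusted p = 0.0101, or 0.0505 without pdx3-3 2) in pdx3-3 and −0.29 (adjusted p = 0.0102) in pdx3-4. OMR1, the PLP-dependent threonine deaminase that feeds isoleucine synthesis, was −0.34 ± 0.068 (adjusted p = 0.00272) in pdx3-3 and −0.38 ± 0.068 (adjusted p = 0.00136) in pdx3-4.

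ADC1 and ADC2 are the arginine decarboxylases that open the route to the polyamine putrescine, and in pdx3-3 ADC1 was lower and ADC2 higher. ADC1 had 97.5, 115 and 116 CPM in pdx3-3, 97, 103 and 95.5 CPM in pdx3-4, and 148, 166 and 158 CPM in wild type. The mutants were separate from wild type, at −0.58 ± 0.081 (adjusted p = 0.000247) in pdx3-3 and −0.73 ± 0.081 (adjusted p = 4.72e-05) in pdx3-4. ADC2 had 192, 205 and 183 CPM in pdx3-3, 188, 129 and 129 CPM in pdx3-4, and 138, 95 and 123 CPM in wild type. All pdx3-3 libraries were above wild type, at 0.65 ± 0.15 (adjusted p = 0.00726), while pdx3-4 overlapped with it, at 0.27 ± 0.15 (adjusted p = 0.196), with its first library near the pdx3-3 level. Without that library the pdx3-4 value was 0.077, without wild type 2 it was 0.14, and the highest value with 1 library left out was 0.40, without wild type 1. Per kilobase, ADC2 gave 63.1% ± 2.6 of the sum of both genes in pdx3-3, 58.9% ± 5.5 in pdx3-4 and 42.1% ± 5.9 in wild type (SD, n = 3). The order of the genes was thus ADC2 above ADC1 in each mutant library and ADC1 above ADC2 in each wild-type library. The ADC2 call held without any 1 library but not without pdx3-3 1 and 2 (log2 0.57, adjusted p = 0.118).

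Of 11 tested enzymes of arginine, proline and polyamine metabolism without PLP, 1 was higher and 2 lower in each mutant. That is 27.3% called, below the 36.4% of all tested genes in pdx3-3 and 39.2% in pdx3-4. The higher gene was PRODH1, a proline dehydrogenase, with 84.3, 91.7 and 83.2 CPM in pdx3-3, 87.4, 114 and 154 CPM in pdx3-4, and 16, 17.8 and 31.3 CPM in wild type. Its groups were far apart, at 1.95 ± 0.25 (adjusted p = 0.000139) in pdx3-3 and 2.41 ± 0.25 (adjusted p = 3.17e-05) in pdx3-4. The lower genes were AIH, the agmatine iminohydrolase that follows arginine decarboxylase, at −0.38 (adjusted p = 0.00636, or 0.168 without pdx3-3 1 and 2) in pdx3-3 and −0.32 (adjusted p = 0.0129) in pdx3-4, and PRODH2, at −0.67 (adjusted p = 0.0194) in pdx3-3 and −0.66 (adjusted p = 0.018) in pdx3-4. The pdx3-4 call of AIH was lost without pdx3-4 2 (0.0541), and those of PRODH2 without wild type 2, wild type 3 or pdx3-3 1 in pdx3-3 (0.0509 to 0.0695, or 0.258 without pdx3-3 1 and 2) and without wild type 2 or pdx3-4 3 in pdx3-4 (0.0655 to 0.0741). DELTA-OAT, the PLP-dependent ornithine aminotransferase, was called in neither mutant.

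SDC1, the serine decarboxylase that makes ethanolamine for choline and phospholipids, was lower in both mutants by a similar amount. It had 58.2, 58.3 and 60.3 CPM in pdx3-3, 61.4, 62.3 and 54.9 CPM in pdx3-4, and 88.3, 81.1 and 79.1 CPM in wild type. No mutant library reached the wild-type range, at −0.55 ± 0.069 (adjusted p = 0.000122) in pdx3-3 and −0.53 ± 0.069 (adjusted p = 0.000148) in pdx3-4.

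**Figure D3:**
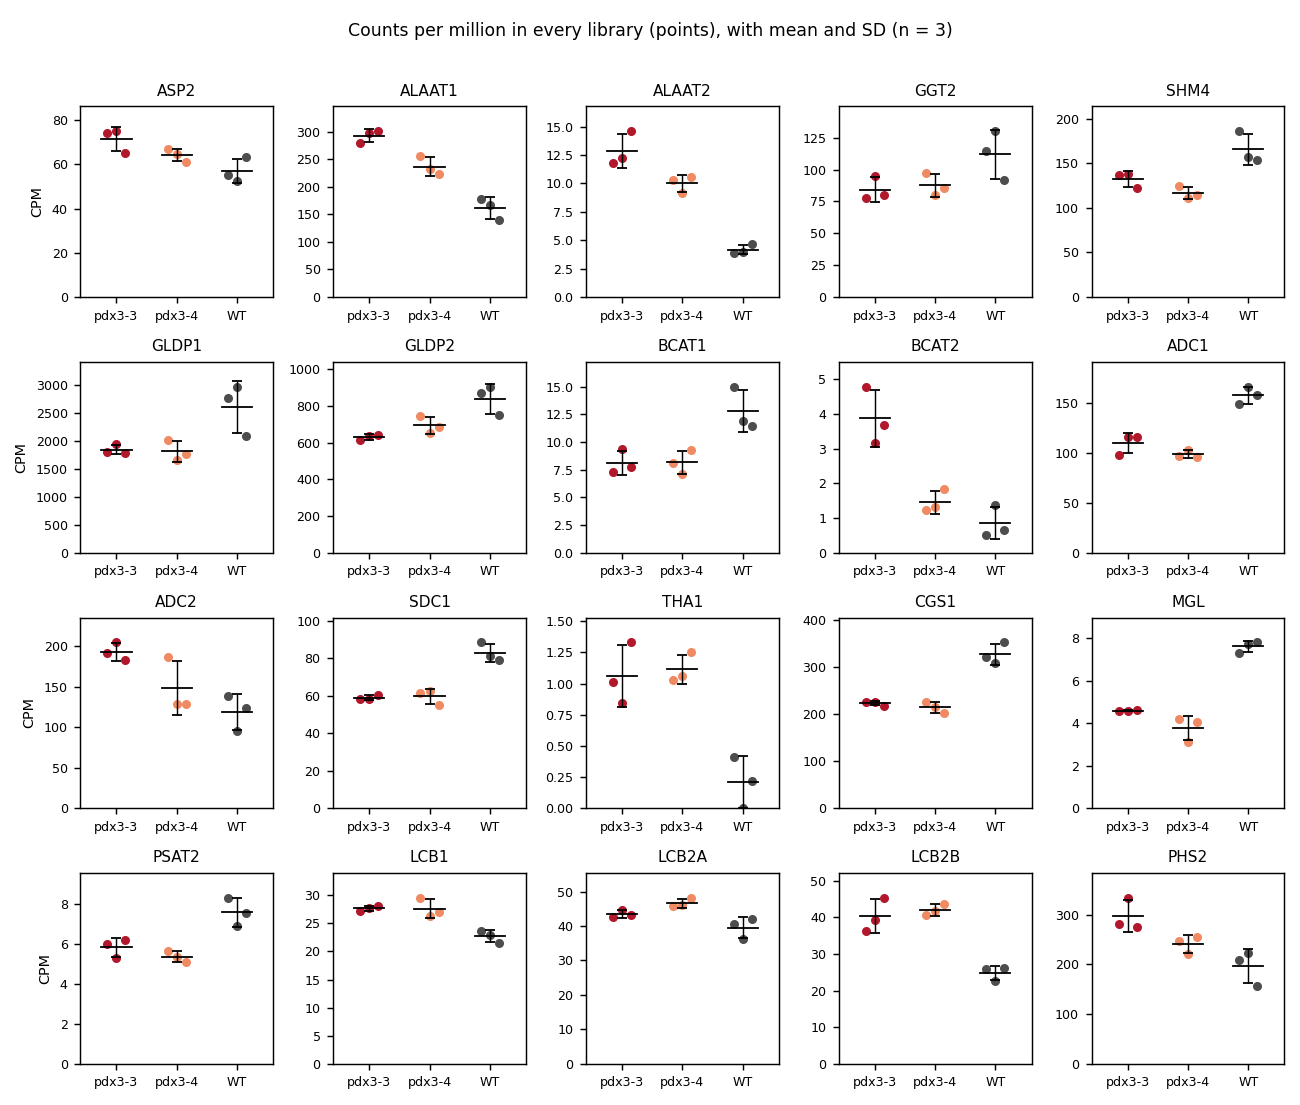
CPM of 20 members in each library (points), with the group mean (line) and SD (bar, n = 3), for pdx3-3, pdx3-4 and wild type (WT), each panel on its own axis starting at 0. ALAAT1 and ALAAT2 are above and ADC1, SDC1, CGS1 and MGL below wild type in all mutant libraries, BCAT2 is separate in pdx3-3 only, and GGT2 overlaps between groups.

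In threonine and methionine metabolism, 1 of 7 members was higher and 4 lower in each mutant. This is 71.4% called, against 36.4% of all tested genes in pdx3-3 and 39.2% in pdx3-4. MGL, the methionine gamma-lyase that breaks methionine down, had 4.59, 4.56 and 4.62 CPM in pdx3-3, 4.18, 3.12 and 4.05 CPM in pdx3-4, and 7.31, 7.75 and 7.81 CPM in wild type. It was below wild type in every mutant library, at −0.79 ± 0.13 (adjusted p = 0.000681) in pdx3-3 and −1.06 ± 0.13 (adjusted p = 8.66e-05) in pdx3-4. CGS1, cystathionine gamma-synthase, which commits carbon to methionine, had 227, 226 and 218 CPM in pdx3-3, 226, 217 and 202 CPM in pdx3-4, and 322, 309.6 and 353 CPM in wild type. The mutants lay close together and below wild type, at −0.61 ± 0.064 (adjusted p = 3.44e-05) in pdx3-3 and −0.66 ± 0.064 (adjusted p = 1.91e-05) in pdx3-4. CBL, the next enzyme of the route, was not called, at 0.036 in pdx3-3 and 0.045 in pdx3-4 (SE 0.074). TS1, threonine synthase, which competes with CGS1 for the same substrate, was −0.25 ± 0.067 (adjusted p = 0.0153, or 0.0677 without pdx3-3 2) in pdx3-3 and −0.40 ± 0.067 (adjusted p = 0.000818) in pdx3-4.

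THA1, a threonine aldolase that splits threonine to glycine, was the member with the largest fold change and among the lowest levels. It had 16, 17 and 28 counts in pdx3-3, 22, 22 and 26 counts in pdx3-4, and 8, 0 and 4 counts in wild type. THA1 passed the filter on low counts through the mutant libraries and not through wild type, so only a higher call was possible. It is nevertheless counted among the 12 higher members in pdx3-3 and the 6 in pdx3-4. Every mutant library was above wild type, with a fitted log2 fold change of 2.31 ± 0.58 (adjusted p = 0.0095) in pdx3-3 and 2.38 ± 0.57 (adjusted p = 0.00702) in pdx3-4, whose size depends on the prior count of the fit. Without wild type 1 it was 3.29 in pdx3-3 and 3.36 in pdx3-4, and without wild type 2 it was 1.70 in pdx3-3 and 1.77 in pdx3-4, with the calls unchanged. THA2, the other threonine aldolase, was called in neither mutant and gave 95.2% of the level of both genes per kilobase in pdx3-3, 94.5% in pdx3-4 and 99.1% in wild type.

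Among 12 other aspartate-family enzymes, none of which uses PLP, of the shared trunk, the lysine branch and methionine synthesis, 0 were higher in either mutant, 3 were lower in pdx3-3 and 9 in pdx3-4. AKHSDH2, which joins an aspartate kinase to a homoserine dehydrogenase, was −0.37 (adjusted p = 0.00449, or 0.0755 without pdx3-3 1 and 2) in pdx3-3 and −0.46 (adjusted p = 0.00105) in pdx3-4. DHDPS2, which opens the lysine branch, was −0.43 (adjusted p = 0.00146) in pdx3-3 and −0.55 (adjusted p = 0.00028) in pdx3-4. Among PLP enzymes of lysine synthesis, DAPDC2, a diaminopimelate decarboxylase, was −0.11 (adjusted p = 0.183) in pdx3-3 and −0.20 in pdx3-4 (adjusted p = 0.0234), lost without wild type 1 or any 1 pdx3-4 library (0.0519 to 0.0741). AGD2, the diaminopimelate aminotransferase, was −0.21 (adjusted p = 0.042) in pdx3-3 and −0.19 in pdx3-4 (adjusted p = 0.0594). The AGD2 call was lost in 8 of 9 fits that left out 1 library (0.059 to 0.166), all but the one without pdx3-3 1.

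The cysteine synthases join sulfide to O-acetylserine, and in pdx3-3 the cytosolic form was higher and the plastid form lower. OASA1, the cytosolic form, was 0.21 ± 0.070 (adjusted p = 0.04) in pdx3-3 and 0.15 ± 0.070 in pdx3-4 (adjusted p = 0.121). OASB, the plastid form, was −0.40 ± 0.079 (adjusted p = 0.00254) in pdx3-3 and −0.29 ± 0.079 in pdx3-4 (adjusted p = 0.0126). The OASB calls held without any 1 library; that of OASA1 was lost without each of 6 single libraries (all wild type, pdx3-3 2, pdx3-4 1 and pdx3-4 2, 0.0555 to 0.167) and with upper-quartile factors (log2 0.08, adjusted p = 0.338). CYSC1, CYSD1 and CYSD2, also annotated as cysteine synthases, are not members and are left out of the sum that follows. The summed level per kilobase of OASA1, OASB and OASC was 352 ± 17.4 CPM per kb in pdx3-3, 351 ± 5.43 in pdx3-4 and 352 ± 7.34 in wild type (SD, n = 3). Within it, OASA1 took 57.9% ± 1.6 in pdx3-3, 55.6% ± 0.64 in pdx3-4 and 48.4% ± 1.9 in wild type. OASB shares 13.2% of its 50-base words with AT2G43745, which overlaps it on the same strand, so its counts are uncertain to that extent.

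Serine acetyltransferases supply the O-acetylserine, and SERAT2;1 was lower in both mutants. It had 22.3, 17.9 and 19.7 CPM in pdx3-3, 16, 14.6 and 12.4 CPM in pdx3-4, and 54.6, 55.2 and 55.6 CPM in wild type. All mutant libraries were far below wild type, at −1.52 ± 0.097 (adjusted p = 1.07e-06) in pdx3-3 and −2.00 ± 0.099 (adjusted p = 6.38e-07) in pdx3-4. SERAT2;2 was −0.32 (adjusted p = 0.00487, or 0.0592 without pdx3-3 1 and 2) in pdx3-3 and −0.36 (adjusted p = 0.00223) in pdx3-4. SERAT3;2, at 1.23 to 3.66 CPM, was 0.66 (adjusted p = 0.033) in pdx3-3 and 1.02 (adjusted p = 0.00273) in pdx3-4, the pdx3-3 call being lost without wild type 1, wild type 2, pdx3-3 2 or pdx3-3 3 (0.0559 to 0.13), without pdx3-3 1 and 2 (0.246) and with upper-quartile factors (log2 0.53, adjusted p = 0.0689). SERAT3;2 lies antisense to the more abundant PSAT1, and without a known strand setting its reads cannot be told apart from those of PSAT1. Over the 9 genes of the serine pathway and serine acetyltransferases, 1 was higher and 2 lower in pdx3-3, and 1 higher and 5 lower in pdx3-4. Calls came to 33.3% in pdx3-3 and 66.7% in pdx3-4, against 36.4% and 39.2% of all tested genes.

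PSAT2, a phosphoserine aminotransferase of plastid serine synthesis, had 5.97, 5.3 and 6.2 CPM in pdx3-3, 5.63, 5.34 and 5.11 CPM in pdx3-4, and 8.29, 6.88 and 7.54 CPM in wild type. The mutants were separate from wild type, at −0.43 ± 0.11 (adjusted p = 0.00997, or 0.175 without pdx3-3 1 and 2) in pdx3-3 and −0.55 ± 0.11 (adjusted p = 0.00241) in pdx3-4. PSAT1, the more abundant copy, was called in neither mutant, and antisense genes cover 28.2% of its exons.

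The tryptophan synthase beta subunit TSB1, which joins indole and serine, was 0.21 ± 0.064 (adjusted p = 0.0267) in pdx3-3 and 0.08 ± 0.064 in pdx3-4 (adjusted p = 0.345, with log2 −0.04 under upper-quartile factors). Its call was lost without wild type 1, wild type 2, pdx3-3 1 or pdx3-3 2 (0.0606 to 0.0851) and with upper-quartile factors (log2 0.08, adjusted p = 0.32). Of 13 other enzymes of tryptophan and histidine synthesis, 3 were higher and 3 lower in pdx3-3, and 1 higher and 4 lower in pdx3-4. Calls were 46.2% in pdx3-3 and 38.5% in pdx3-4, against 36.4% and 39.2% of all tested genes. ASA1, the anthranilate synthase subunit at the entry to tryptophan, was 0.60 ± 0.074 (adjusted p = 9.64e-05) in pdx3-3 and 0.35 ± 0.073 (adjusted p = 0.0036) in pdx3-4. IGPS, indole-3-glycerol phosphate synthase, was 0.04 ± 0.074 in pdx3-3 (adjusted p = 0.743, with log2 −0.09 under upper-quartile factors) and −0.42 ± 0.075 (adjusted p = 0.00115) in pdx3-4. HISN1A, the entry enzyme of histidine synthesis, was −0.38 (adjusted p = 0.000876) in pdx3-3 and −0.37 (adjusted p = 0.00101) in pdx3-4. HPA1, the PLP enzyme of histidine synthesis, was called in neither, and its values are uncertain because 48.9% of its 50-base words also occur in HPA2.

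Subunits of serine palmitoyltransferase, which condenses serine with palmitoyl-CoA to start sphingolipid synthesis, were higher for 2 of 3 genes in pdx3-3 and 3 of 3 in pdx3-4. Over all tested genes, 19% were higher in pdx3-3 and 20.9% in pdx3-4. LCB2B, a PLP-binding subunit, had 36.2, 39.4 and 45.3 CPM in pdx3-3, 40.6, 41.8 and 43.8 CPM in pdx3-4, and 25.8, 22.6 and 26.2 CPM in wild type. Every mutant library was above wild type, at 0.64 ± 0.089 (adjusted p = 0.000237) in pdx3-3 and 0.71 ± 0.089 (adjusted p = 0.000112) in pdx3-4, and both calls held without any 1 library. LCB1, the partner subunit, had 27.2, 27.7 and 28.1 CPM in pdx3-3, 29.5, 26.3 and 27.1 CPM in pdx3-4, and 23.6, 22.9 and 21.5 CPM in wild type. It was also separate from wild type, at 0.23 ± 0.073 (adjusted p = 0.0294) in pdx3-3 and 0.23 ± 0.073 (adjusted p = 0.0265) in pdx3-4. These LCB1 calls were lost without wild type 3, pdx3-3 2 or pdx3-3 3 in pdx3-3 (0.0712 to 0.0781), without wild type 3, pdx3-4 1 or pdx3-4 3 in pdx3-4 (0.064 to 0.0982), and with upper-quartile factors (log2 0.11, adjusted p = 0.192 in pdx3-3; log2 0.12, adjusted p = 0.171 in pdx3-4).

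LCB2A, the other copy of the PLP-binding subunit, had 42.7, 44.7 and 43.1 CPM in pdx3-3, 45.7, 46 and 48.1 CPM in pdx3-4, and 40.5, 36.1 and 41.9 CPM in wild type. Its libraries were separate but close, at 0.09 ± 0.068 in pdx3-3 (adjusted p = 0.36, with log2 −0.04 under upper-quartile factors) and 0.19 ± 0.067 in pdx3-4 (adjusted p = 0.0483). The pdx3-4 call was lost in 7 of 9 fits that left out 1 library (0.0642 to 0.175), all but those without wild type 3 or pdx3-3 1, and with upper-quartile factors (log2 0.07, adjusted p = 0.449). LCB2B thus took a larger share of the LCB2 level per kilobase, 40.9% ± 2.8 in pdx3-3, 40.4% ± 0.31 in pdx3-4 and 32.1% ± 0.22 in wild type (SD, n = 3). Of 7 genes of sphingoid bases and ceramides without PLP, 3 were higher and 0 lower in each mutant. This is 42.9% higher, against 19% of all tested genes in pdx3-3 and 20.9% in pdx3-4. SBH2, a sphingoid base hydroxylase, was 0.22 ± 0.079 in pdx3-3 (adjusted p = 0.0547, or 0.0448 without wild type 1) and 0.74 ± 0.078 (adjusted p = 3.36e-05) in pdx3-4. ORM2, of the family that restrains serine palmitoyltransferase, was 0.63 (adjusted p = 0.00117) in pdx3-3 and 0.66 (adjusted p = 0.000734) in pdx3-4. LOH2, a ceramide synthase, was 0.36 (adjusted p = 0.032) in pdx3-3 and 0.39 (adjusted p = 0.0188) in pdx3-4, lost in pdx3-3 without wild type 2, wild type 3 or any 1 pdx3-3 library (0.0547 to 0.0893, or 0.14 without pdx3-3 1 and 2), in pdx3-4 without wild type 2 or pdx3-4 1 (0.0501 to 0.0603), and in both with upper-quartile factors (log2 0.24, adjusted p = 0.112 in pdx3-3; log2 0.28, adjusted p = 0.0666 in pdx3-4).

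**Figure D4:**
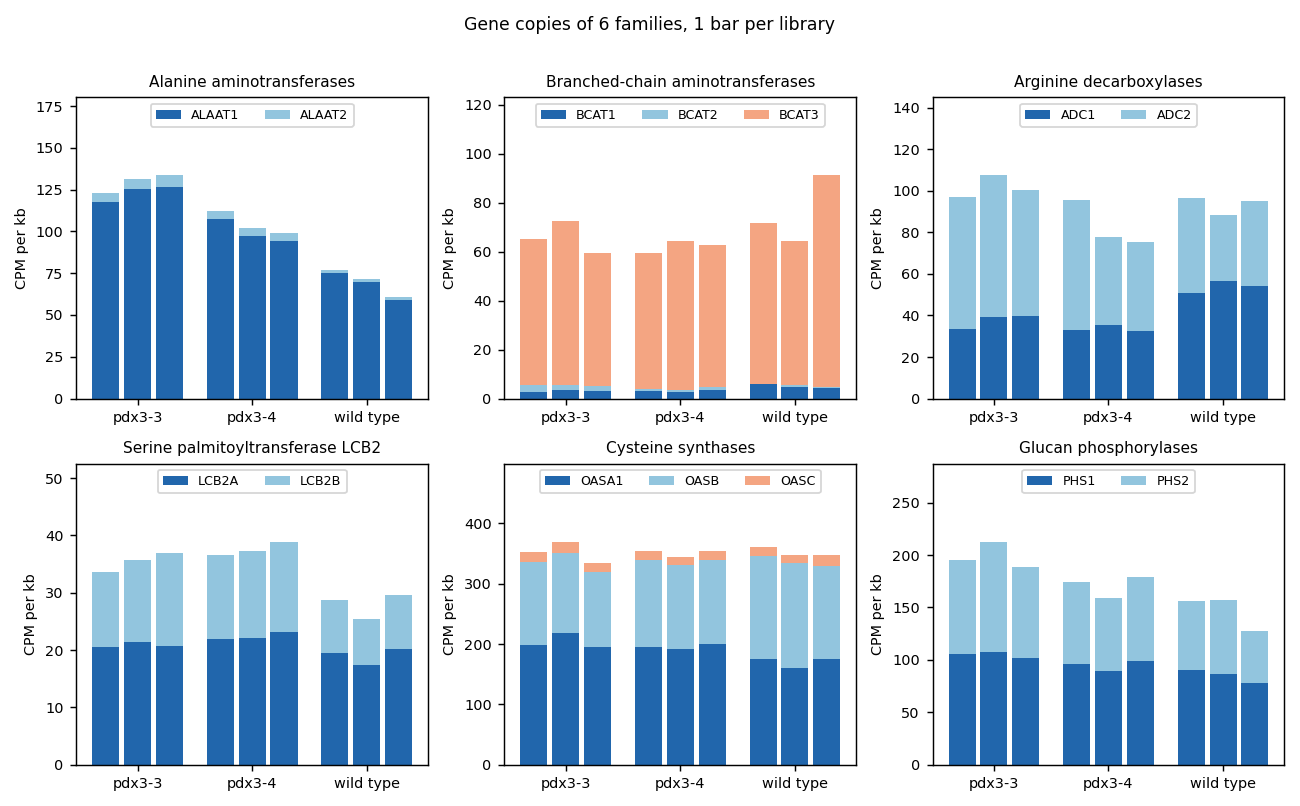
Level of the member gene copies of 6 families in CPM per kb, stacked, with 1 bar per library, grouped as pdx3-3, pdx3-4 and wild type. ADC2 is the larger part in each mutant library and ADC1 in each wild-type library. The summed level of OASA1, OASB and OASC is near 352 CPM per kb in pdx3-3, 351 in pdx3-4 and 352 in wild type. The alanine aminotransferase bars are higher in both mutants than in wild type.

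Glutamate-1-semialdehyde aminotransferase makes 5-aminolevulinate, the precursor of tetrapyrroles such as chlorophyll, and both of its genes were lower in both mutants. GSA1 was −0.35 ± 0.073 (adjusted p = 0.0033) in pdx3-3 and −0.43 ± 0.073 (adjusted p = 0.000877) in pdx3-4. GSA2 was −0.23 ± 0.072 (adjusted p = 0.0296) in pdx3-3 and −0.28 ± 0.072 (adjusted p = 0.00965) in pdx3-4, the pdx3-3 call being lost without wild type 1, wild type 2, pdx3-3 2 or pdx3-3 3 (0.0564 to 0.121).

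The cysteine desulfurases release sulfur for iron-sulfur clusters. NFS1, the mitochondrial form, was −0.20 ± 0.068 (adjusted p = 0.0411) in pdx3-3 and −0.19 ± 0.068 in pdx3-4 (adjusted p = 0.0493), and the plastid form NFS2 was called in neither. The NFS1 calls were lost without wild type 1, wild type 3, pdx3-3 2, pdx3-3 3 or pdx3-4 1 in pdx3-3 (0.0602 to 0.135) and without any 1 library other than pdx3-4 3 in pdx3-4 (0.0503 to 0.168). Of 7 tested partners in cluster assembly, 3 were lower in pdx3-3 and 4 in pdx3-4, with 0 higher. Lower shares were thus 42.9% in pdx3-3 and 57.1% in pdx3-4, against 17.5% and 18.4% of all tested genes. SUFC, of the plastid scaffold complex, was −0.31 (adjusted p = 0.00332) in pdx3-3 and −0.33 (adjusted p = 0.00188) in pdx3-4. SUFD was −0.14 (adjusted p = 0.137, or 0.0463 without wild type 3) in pdx3-3 and −0.24 (adjusted p = 0.0149) in pdx3-4, and SUFE1 −0.14 (adjusted p = 0.161) in pdx3-3 and −0.26 (adjusted p = 0.0157) in pdx3-4. The pdx3-4 calls were lost without wild type 2, pdx3-4 1 or pdx3-4 2 for SUFD (0.053 to 0.0573), and without wild type 1, wild type 2, pdx3-4 1 or pdx3-4 2 for SUFE1 (0.0518 to 0.0567).

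The glucan phosphorylases, which release glucose 1-phosphate from glucans, were higher in pdx3-3. PHS2, the cytosolic form, had 282, 334 and 275 CPM in pdx3-3, 248, 221 and 255 CPM in pdx3-4, and 209.7, 223 and 157 CPM in wild type. It was above wild type in every pdx3-3 library, at 0.53 ± 0.14 (adjusted p = 0.0127, or 0.0577 without pdx3-3 2), and overlapped with wild type in pdx3-4, at 0.24 ± 0.14 (adjusted p = 0.206). PHS1, the plastid form, was 0.25 ± 0.085 (adjusted p = 0.0403) in pdx3-3 and 0.11 ± 0.085 in pdx3-4 (adjusted p = 0.346, with log2 −0.0067 under upper-quartile factors). Its pdx3-3 call was lost without wild type 3, any 1 pdx3-3 library or pdx3-4 1 (0.0566 to 0.115) and with upper-quartile factors (log2 0.13, adjusted p = 0.181). AT3G46980 overlaps PHS2 on the same strand. Of 9 other starch breakdown genes, 3 were higher and 1 lower in each mutant. The share called was 44.4% in each, against 36.4% of all tested genes in pdx3-3 and 39.2% in pdx3-4. PWD, the phosphoglucan water dikinase, was 0.64 ± 0.095 (adjusted p = 0.000412) in pdx3-3 and 0.53 ± 0.095 (adjusted p = 0.0013) in pdx3-4. The beta-amylase BAM3 was −0.57 ± 0.10 (adjusted p = 0.00156, or 0.0721 without pdx3-3 1 and 2) in pdx3-3 and −0.42 ± 0.10 (adjusted p = 0.00843) in pdx3-4. BAM1, another beta-amylase, was 0.12 in pdx3-3 (adjusted p = 0.353, with log2 −0.0026 under upper-quartile factors) and 0.32 in pdx3-4 (adjusted p = 0.0187), the pdx3-4 call being lost without wild type 1 or pdx3-4 1 (0.0528 to 0.082) and with upper-quartile factors (log2 0.21, adjusted p = 0.0616).

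The genes that supply the cofactor, other than PDX3, were 1 higher and 2 lower of 6 in pdx3-3, and 0 higher and 3 lower in pdx3-4. PDX1.3, a subunit of the PLP synthase, was −0.50 ± 0.077 (adjusted p = 0.000485) in pdx3-3 and −0.46 ± 0.077 (adjusted p = 0.000754) in pdx3-4. PDX1.1, its close homologue, was −0.49 ± 0.080 (adjusted p = 0.000801) in pdx3-3 and −0.24 ± 0.080 (adjusted p = 0.033) in pdx3-4, lost in pdx3-4 without wild type 2 (where it was −0.15), pdx3-3 2 or any 1 pdx3-4 library (0.0508 to 0.116). The higher gene was PDX1.2, a homologue of these without their catalytic activity, with 6.47, 6.74 and 6.1 CPM in pdx3-3, 4.13, 3.94 and 4.29 CPM in pdx3-4, and 4.22, 3.01 and 3.8 CPM in wild type. Its pdx3-3 libraries were above all others, at 0.76 ± 0.14 (adjusted p = 0.00135) in pdx3-3 and 0.12 ± 0.14 (adjusted p = 0.541) in pdx3-4, the second being 0.0048 to 0.23 with 1 library left out.

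Of 30 tested PLP enzymes outside this set, with roles in hormone, specialised and other metabolism, 3 were higher and 6 lower in pdx3-3 (30.0% called), and 3 higher and 9 lower in pdx3-4 (40.0% called). Over all tested genes the shares were 36.4% in pdx3-3 and 39.2% in pdx3-4. DES1, a cytosolic cysteine desulfhydrase, was −1.02 ± 0.11 (adjusted p = 4.5e-05) in pdx3-3 and −1.08 ± 0.11 (adjusted p = 2.97e-05) in pdx3-4. TAR2, a tryptophan aminotransferase of auxin synthesis, was −0.68 ± 0.078 (adjusted p = 6.35e-05) in pdx3-3 and −0.46 ± 0.076 (adjusted p = 0.000823) in pdx3-4. AGT3, annotated as an alanine glyoxylate aminotransferase, was 0.75 ± 0.12 (adjusted p = 0.000496) in pdx3-3 and 0.80 ± 0.12 (adjusted p = 0.000294) in pdx3-4. Over all 12 lists around the members, 20 of 129 tested genes were higher and 30 lower in pdx3-3 (38.8% called), and 19 higher and 47 lower in pdx3-4 (51.2% called). Lower calls made up 23.3% of these genes in pdx3-3 and 36.4% in pdx3-4. For the members this share was 40.4% in each mutant, and over all tested genes 17.5% in pdx3-3 and 18.4% in pdx3-4.

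**Figure D5:**
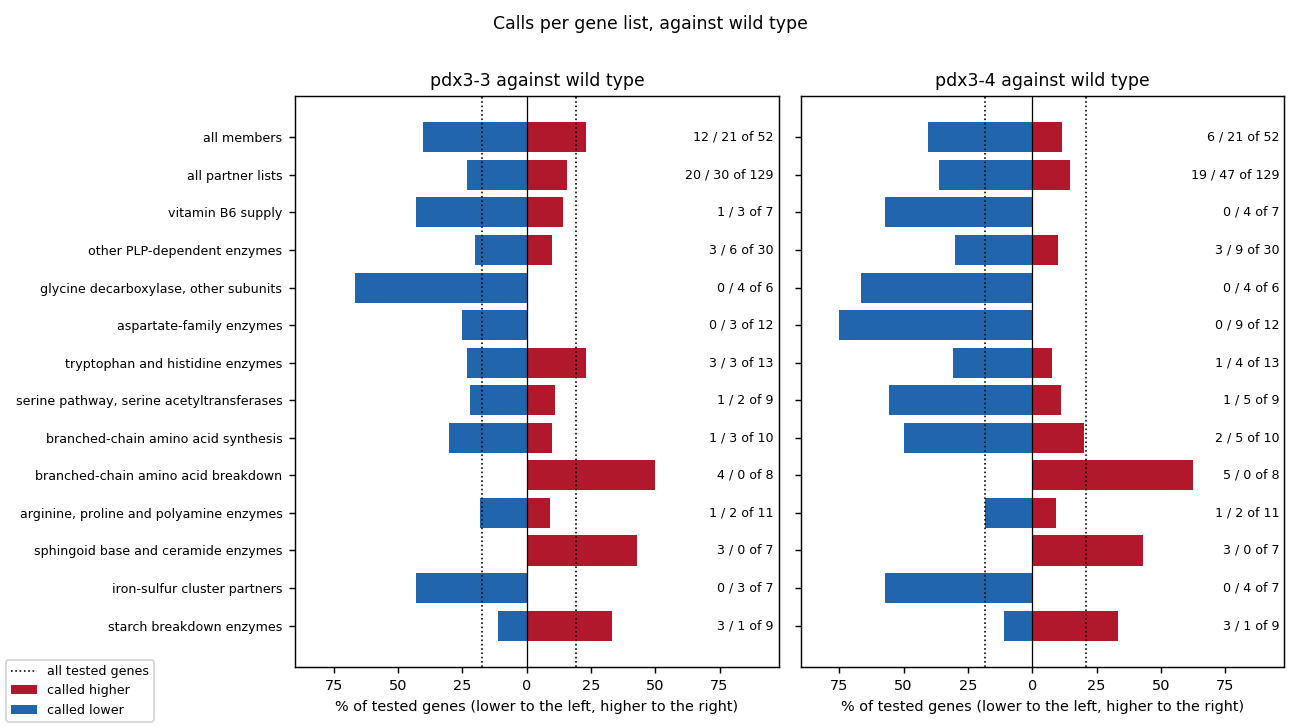
Share of tested genes called higher (right) and lower (left) in pdx3-3 and pdx3-4 against wild type, for the 52 members, all 12 partner lists together and each list, with dotted lines at the shares over all tested genes (19% higher and 17.5% lower in pdx3-3, 20.9% higher and 18.4% lower in pdx3-4). The members have 21 lower calls in each mutant, and branched-chain breakdown and sphingoid base genes have higher calls and no lower ones.

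The alleles were also set against each other, which does not use the wild-type libraries for the difference. BCAT2 was higher in pdx3-3 than in pdx3-4, at 1.40 ± 0.31 (adjusted p = 0.0263), with no overlap between the libraries, and no member was lower. This is 1.92% of the members, against 6.16% of all tested genes, 3.32% higher and 2.84% lower. The BCAT2 call was lost without any 1 pdx3-3 or pdx3-4 library (adjusted p of 0.055 to 0.106). At an unadjusted p under 0.05, 8 members were higher and 0 lower, and the share of all genes at that threshold was not computed. DESeq2 called 3 members higher and 0 lower, against 7.56% of all tested genes in either direction. The median of the members was 0.05, against −0.01 over all genes. Next to the threshold was TSB2, the minor tryptophan synthase beta subunit, at 0.56 ± 0.15 (adjusted p = 0.051), with 7.92, 9.07 and 8.2 CPM in pdx3-3 and 5.21, 5.24 and 6.55 CPM in pdx3-4. Against wild type, ADC2, PHS1, PHS2, ASP2, TSB1, OASA1, AGT1, AGD2 and TAT7 were called in pdx3-3 alone and ASP5, SHM2, DAPDC2 and LCB2A in pdx3-4 alone, but for none of these did the test of the difference between the alleles make a call.

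Called in neither mutant against wild type were 15 members: ASP1, ASP3, ASP4, SHM3, BCAT3, DAPDC1, THA2, CBL, HPA1, WIN1, DELTA-OAT, PSAT1, TSB2, OASC and NFS2. Their log2 fold changes ran from −0.28 (ASP4) to 0.21 (TSB2) in pdx3-3 and from −0.37 (ASP4) to 0.17 (DELTA-OAT) in pdx3-4, with adjusted p of 0.0969 to 0.737 in pdx3-3 and of 0.056 to 0.983 in pdx3-4. Missing the threshold does not show that these transcripts were equal. The called members nearest to it were PHS1, NFS1 and AGD2 in pdx3-3 (adjusted p = 0.0403, 0.0411 and 0.042), and GGT2, LCB2A and NFS1 in pdx3-4 (0.0369, 0.0483 and 0.0493).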

How the data were processed

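Counts of reads per gene locus were deposited by the authors, 1 file per library, as whole numbers with no normalization. The kit selects polyA RNA and marks strand, per the labels. Reads were checked and aligned with FastQC and TopHat2 (version 2), with TAIR10 as the genome build, per the submitters' processing notes. Which program counted the reads, whether it used strand and what it did with multiply matching reads is not given in the sources used here.

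The 53 members, 12 partner lists, marker lists and the naming rule were set with earlier results of these data known. Values in every library are given for up to 8 higher and 8 lower members with the largest log2 fold change among those called in each mutant against wild type, and for members called between alleles. Library values of PRODH1, SERAT2;1, TSB2 and PDX1.2 were added after they were seen, as were TAA1 and TSA1, which differed between alleles. Partner genes named are up to 3 per list with the smallest adjusted p. A gene that this rule names is not reported here. Genes were filtered with filterByExpr (18783 of 33602 left), given TMM factors (0.949 to 1.03), and compared in 1 quasi-likelihood fit of all 9 libraries with edgeR 4.0.16 under R 4.3.3 (6 residual degrees of freedom, common dispersion 0.0118), with Benjamini-Hochberg adjustment. CPM uses the library total and fold changes the TMM factors, so ratios of printed CPM differ slightly from them. Each SE was obtained by dividing the absolute log2 fold change by the root of its F statistic. Levels per kilobase use the exon length of each locus in the TAIR10.1 annotation. DESeq2 1.42.0 was an alternative, beside other size factors, filters and left-out libraries. The pipeline was tested on simulated counts. Chi-square values per degree of freedom between replicates were 5.34 to 25.5, more than counting noise, and each library counts as its own sample. Libraries held 15912737 to 21938941 counts, and the SE of each fold change gives the precision reached. Protein sequences were not used here.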

Additional observations from a re-analysis of the deposited data

Results flagged for a closer look

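The pdx3-3 against pdx3-4 difference passed the test for BCAT2 and 9 partner genes including PDX3 (−2.29, adjusted p = 8.56e-06), and these are listed because the effect against wild type differs between the alleles. They are 1.92% of the tested members and 6.98% of the tested partner genes, against 6.16% of all tested genes. BCAT2 was higher in pdx3-3 than in pdx3-4 by 1.40 on the log2 scale, the only member among them. IGPS of tryptophan synthesis was higher by 0.46 (adjusted p = 0.00638), and SERAT2;1 by 0.47 (adjusted p = 0.0221) although it lay below wild type in both alleles. AHASS1 was −0.45 (adjusted p = 0.0413), MCCA −0.26 (adjusted p = 0.0476) and SBH2 −0.53 (adjusted p = 0.00388), each lower in pdx3-3 than in pdx3-4. PDX1.2 was higher in pdx3-3 by 0.64 (adjusted p = 0.0196), TAA1, a tryptophan aminotransferase of auxin synthesis, by 0.67 (adjusted p = 0.0255), and TSA1, the tryptophan synthase alpha chain, by 0.36 (adjusted p = 0.0111). TAA1 was −0.25 (adjusted p = 0.191) in pdx3-3 and −0.92 (adjusted p = 0.000584) in pdx3-4 against wild type, and TSA1 was 0.26 (adjusted p = 0.01) in pdx3-3 and −0.10 (adjusted p = 0.272) in pdx3-4. With upper-quartile factors the TSA1 call was lost in pdx3-3 (0.14, adjusted p = 0.122) and made in pdx3-4 (−0.22, adjusted p = 0.0265). The difference between alleles was lost without pdx3-3 2 or any 1 pdx3-4 library for PDX1.2 (0.0591 to 0.0802), without any 1 mutant library for TAA1 (0.0561 to 0.112) and without pdx3-4 2 for TSA1 (0.0513). The IGPS and SBH2 calls held without any 1 library. That of SERAT2;1 was lost without pdx3-3 1, pdx3-3 3, pdx3-4 2 or pdx3-4 3 (adjusted p of 0.0501 to 0.108). AHASS1 lost its call without any library but pdx3-3 3 or wild type 3 (0.055 to 0.161), and MCCA without any but wild type 3 (0.057 to 0.2). With library size only the AHASS1 call was also lost (0.0552), as was the MCCA call with upper-quartile factors (0.057) or no filter (0.0548). Without pdx3-3 1 and 2, a lone pdx3-3 library remains. The differences were then 1.33 for BCAT2, 0.56 for PDX1.2, 0.64 for TAA1, 0.32 for TSA1, 0.37 for IGPS and 0.45 for SERAT2;1. They were −0.18 for AHASS1, −0.25 for MCCA and −0.48 for SBH2. With a lone pdx3-3 library these are sizes only, and they do not show that any of these calls held.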

How the results depend on the processing

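Over all alternatives, 2782 values of named genes kept their direction and side of the threshold, 267 lost their call, 22 gained a call and 7 changed sign. The sign changes were, with upper-quartile factors, TSB1 in pdx3-4 (−0.036), LCB2A in pdx3-3 (−0.039), PHS1 in pdx3-4 (−0.0067), IGPS in pdx3-3 (−0.088) and BAM1 in pdx3-3 (−0.0026), and for IGPS in pdx3-3 also without pdx3-3 replicate 1 (−0.015, in a range up to 0.083 over single left-out replicates) and without pdx3-3 replicates 1 and 2 (−0.048). Upper-quartile factors moved the median log2 fold change of all genes to −0.149 in pdx3-3 and −0.132 in pdx3-4; relative to it, the members' medians were −0.133 in pdx3-3 and −0.174 in pdx3-4 (−0.282 and −0.306 before). They also moved the share of higher calls among all called genes to 34.1% in pdx3-3 and 36.8% in pdx3-4, and library size alone to 62.1% and 61.5%, against 52% and 53.2%.

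In pdx3-3 against wild type, the 12 higher members were 7 with upper-quartile factors and 5 without pdx3-3 replicates 1 and 2, and the 21 lower members were 10 without those; the cause was not tested. Leaving out 1 replicate gave 6 to 12 higher and 15 to 20 lower members in pdx3-3, 4 to 6 higher and 14 to 23 lower in pdx3-4, and 0 to 3 higher and 0 lower between the alleles. Between the alleles, 2 members were higher with DESeq2 size factors, no filter, at least 1 CPM in 3 libraries, the replicate block or organellar genes left out, 3 with DESeq2 or only the groups compared, and 0 without pdx3-3 replicates 1 and 2. With the replicate block, 9 members were higher and 19 lower in pdx3-3, and 5 higher and 18 lower in pdx3-4. Replicate numbers were not used to pair the samples in the main fit. Correlations of deviations from the group mean ran from −0.18 to 0.353 for same-numbered libraries and from −0.359 to 0.378 for differently numbered ones. With so few libraries per group, these values cannot exclude a pairing. Depth limits THA1, BCAT2 and HPA2, with at most 77 counts in a library.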
